A study of Mus musculus with 6 samples.

Results

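The genes described here are 9 members of the interleukin 4 and interleukin 13 axis, out of 15295 genes in the deposited count table. They are the receptor chains Il13ra2, Il13ra1 and Il4ra, the transcription factor gene Stat6, the alarmin Il33 and its receptor Il1rl1, and the target genes Arg1, Retnla and Chil3. All 9 had a row in the table, found by Entrez number, and all 9 passed the filter on low counts. The set was chosen by the counts of Il13ra2, which were lower in one group than in the other, so that difference is described below without a test. The other 8 genes were added for their place in the pathway.

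RNA was sequenced from 6 bulk tumours of NA13, a mouse bladder cancer cell line, and the labels give the strain as C57BL/6 and call the tumours xenografts. The control group has 3 tumours whose cells carried a scrambled shRNA, and the second group has 3 tumours labelled shDdr2, an shRNA against the collagen receptor gene Ddr2. All 6 received IgG, so no untreated tumour is in the series. The labels do not give the age of the animals, the number of shRNA clones or whether each library is a separate animal, so the p-values rest on the spread among these libraries alone, and part of it may be technical.

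Interleukin 4 and interleukin 13 are the main cytokines of type 2 immunity, the response to parasites, allergens and tissue injury. Both signal through a receptor made of IL4RA and IL13RA1, which activates STAT6, and IL13RA2 binds interleukin 13 with high affinity but lacks the long cytoplasmic tail needed for that signal and is regarded mainly as a decoy. Interleukin 33 is released by damaged epithelial and stromal cells and acts through the receptor encoded by Il1rl1 (ST2) on mast cells, type 2 lymphocytes and other cells. In macrophages, interleukin 4 and interleukin 13 induce Arg1, Retnla and Chil3, the classical markers of alternative activation.

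The libraries held 15560571 to 19522985 counts. Levels are given as CPM, the counts relative to library totals scaled by TMM, in which a single count is worth 0.0487 to 0.0722 CPM. Ddr2 was at 6.42, 16.7 and 20.5 CPM in control 1 to 3 and at 4.84, 19.0 and 28.6 CPM in the second group, which differed by 0.27 on the log2 scale (SE 0.66, 95% interval -1.27 to 1.81). The target gene was thus not shown to be lower in the second group, and the groups are called by their labels throughout. The counts pool the tumour cells, which carried the shRNA, with the other cells of each tumour. They therefore do not show whether the shRNA lowered Ddr2 in the cells that carried it. The library labelled shDdr2 1 stood apart on the first principal component (-85.2, the others from -16.3 to 45.7) and control 1 on the second (-55.7, the others from -6.75 to 34.3). Because these are whole tumours, fewer cells of a type and less RNA per cell cannot be told apart. The genes for interleukin 4, interleukin 13 and interleukin 5 had no row in the table and were not analysed here, so the axis is seen from its receptors, alarmins and targets.

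Of the receptor chains for interleukin 4 and interleukin 13, Il13ra2 had the lowest level per kilobase of exon, and it was lower in the libraries labelled shDdr2, the difference that chose the set. Il13ra2 (Entrez 16165, a protein-coding gene at chromosome X, 147383476 to 147429192, minus strand, GRCm38) had 56, 158 and 168 counts in control 1 to 3, which is 3.02, 9.44 and 10.6 CPM. Those labelled shDdr2 1 to 3 had 24, 37 and 20 counts of it, or 1.73, 1.80 and 1.15 CPM. Every control library was above every library labelled shDdr2, but control 1 lay closer to those libraries than to the other controls. Exact 95% Poisson limits, for counting error alone, ran from 2.28 to 3.92 CPM in control 1 and from 1.27 to 2.48 CPM in the library labelled shDdr2 2, so the counting error of the nearest libraries overlaps. The group means were 7.67 ± 4.07 and 1.56 ± 0.359 CPM (SD, n = 3 each), a fitted log2 difference of -2.29 (SE 0.54). The groups did not overlap in 4.32% of the 14498 genes tested, in 2.11% with the libraries labelled shDdr2 lower and in 2.21% with them higher. Between libraries of the same number the log2 CPM of Il13ra2 differed by -0.76, -2.32 and -3.08 for numbers 1, 2 and 3. With each library left out in turn the difference ran from -2.66, without control 1, to -1.99, without control 3, and its sign is fixed by groups that do not overlap.

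Markers of other cells moved with this split in 1 of the 13 lists summed. The 6 skeletal muscle markers, all in the table, summed to 3.99 to 75.3 CPM in control tumours and to 339 to 2559 CPM in those labelled shDdr2, and their part in the result was not tested. The 8 fibroblast markers ranged from 2382 to 5058 CPM in control tumours and from 1299 to 9936 CPM in those labelled shDdr2, and the 7 epithelial tumour markers from 10757 to 12606 CPM and from 10626 to 11894 CPM. Neither list separated the groups, nor did the 5 endothelial markers (104 to 224 against 58.2 to 332 CPM), the 7 keratinocyte markers (493 to 748 against 609.9 to 2409 CPM) or the 2 adipocyte markers in the table, of 6 (20.3 to 35.8 against 15.2 to 49.6 CPM). Per 1000 CPM of epithelial markers, Il13ra2 was at 0.251, 0.878 and 0.838 CPM in control 1 to 3. In the libraries labelled shDdr2 it was at 0.154, 0.152 and 0.108 CPM. The epithelial sum varied little between libraries, so these values repeat the split that chose the set and are no separate result. Per 1000 CPM of fibroblast markers, Il13ra2 was at 1.27, 2.28 and 2.09 CPM in control 1 to 3. It was at 1.33, 0.50 and 0.116 CPM in the others, and there the library labelled shDdr2 1 lay above control 1.

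The sequence before the start of Il13ra2 is shown with those of Retnla and Chil3, the genes of the set with a STAT pattern there and a low level in control 1. This choice used the levels, so it shows no link between pattern and level. It leaves out Il33, which also has a STAT pattern and was highest in control 1. The sequences come from RefSeq promoter windows on GRCm38.p6, in the direction of the gene, and stop at the GENCODE start. For Retnla that start lies before the RefSeq start, so its printed sequence is shorter than the window searched. Distances given below count to the RefSeq start. Capitals mark matches to TTCNNNNGAA, the spacing preferred by STAT6, to TTCNNNGAA, the spacing of other STAT factors, and to TGANTCA, the AP-1 pattern, which was added after the Il13ra2 sequence had been seen. Each pattern reads the same on both strands.
Il13ra2, chrX:147429193-147429442, minus strand: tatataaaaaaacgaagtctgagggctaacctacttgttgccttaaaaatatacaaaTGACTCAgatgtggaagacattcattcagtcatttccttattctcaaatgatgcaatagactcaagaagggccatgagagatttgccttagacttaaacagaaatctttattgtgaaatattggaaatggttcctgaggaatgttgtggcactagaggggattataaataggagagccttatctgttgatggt
Retnla, chr16:48842359-48842550, plus strand: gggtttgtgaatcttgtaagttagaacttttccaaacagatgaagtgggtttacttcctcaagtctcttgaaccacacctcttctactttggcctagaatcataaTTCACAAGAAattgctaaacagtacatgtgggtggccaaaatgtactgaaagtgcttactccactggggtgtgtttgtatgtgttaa
Chil3, chr3:106167565-106167814, minus strand: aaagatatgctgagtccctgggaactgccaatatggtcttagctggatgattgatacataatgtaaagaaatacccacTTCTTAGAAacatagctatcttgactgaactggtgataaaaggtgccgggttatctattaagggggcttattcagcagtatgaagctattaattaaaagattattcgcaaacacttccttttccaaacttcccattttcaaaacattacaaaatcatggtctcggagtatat

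Of 32851 promoter windows of 250 bases, 5.85% held TTCNNNNGAA, 7.02% held TTCNNNGAA and 6.75% held TGANTCA. The Il13ra2 window held TGACTCA, whose last base lies 187 bases before the RefSeq start, and neither STAT pattern. Retnla held TTCACAAGAA, ending 136 bases before its RefSeq start, and Chil3 held TTCTTAGAA, ending 164 bases before its own. The first of the windows of Il33 held TTCTGGGGAA, ending 27 bases before the start, while the windows of Il4ra, Il13ra1, Stat6 and Il1rl1 held no match to any of the patterns. No window for Arg1 was available, so that gene was not searched. A match describes letters in these windows and says nothing of binding.

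**Figure D1:**
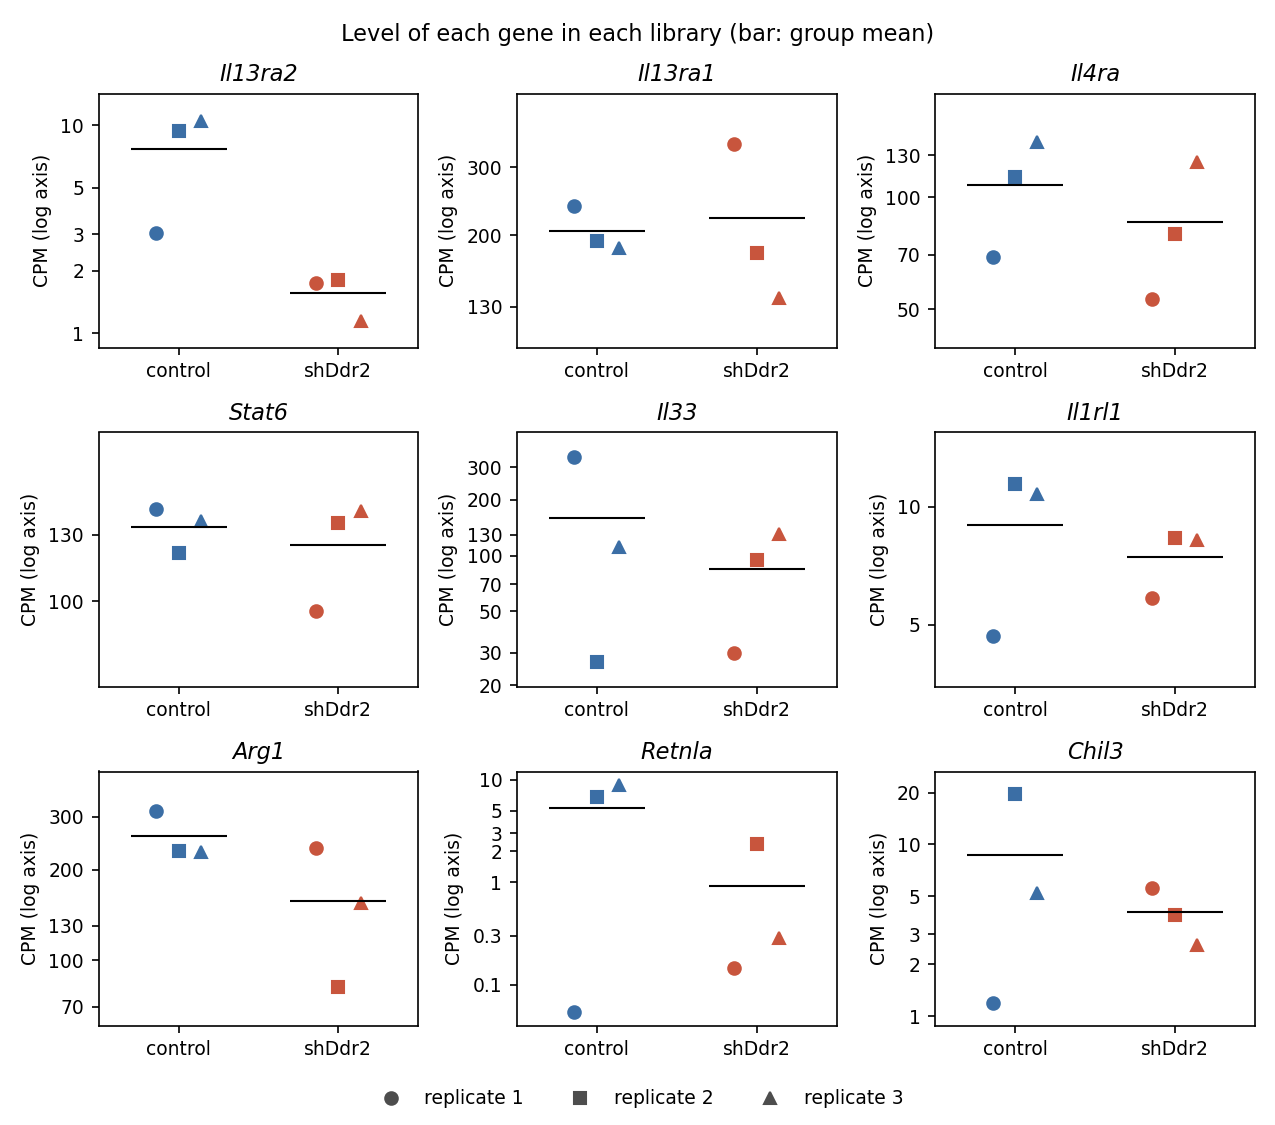
CPM of the 9 genes in each library on log axes, with circles, squares and triangles for replicates 1, 2 and 3, blue for control and red for libraries labelled shDdr2, and bars for group means. Il13ra2 has no overlap between the groups (3.02 to 10.6 against 1.15 to 1.80 CPM), and the other 8 genes overlap.

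None of the other 8 genes differed between the groups by the edgeR quasi-likelihood test adjusted over all genes, in which 0% of 14498 genes were called in either direction. At an unadjusted p under 0.05 the test gave 0 of the 8 genes, where 1.44% of all genes passed, 0.993% with the second group higher and 0.448% with it lower. With so low a share over all genes, 0 of 8 does not set these genes apart. DESeq2, which called 0.223% of 15273 genes higher and 0.0393% lower, called 0 of the 8. So did limma with voom or with the deposited log2 values, which called 0 of all 14498 genes. In 7 of the 8 the fitted value was lower in the libraries labelled shDdr2, against 42.9% of all genes. Their median log2 difference was -0.52, beside 0.04 over all genes, and the groups overlapped in all 8.

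The signalling receptor chains were abundant, and their levels overlapped between the groups. Il13ra1 (chromosome X, 36112110 to 36171259, plus strand), which pairs with IL4RA to bind interleukin 13, was at 239, 193 and 185 CPM in control 1 to 3 and at 346, 179 and 137 CPM in the libraries labelled shDdr2 1 to 3. The library labelled shDdr2 1 held the highest level and that labelled shDdr2 3 the lowest, so the controls lay inside the range of the other group. The log2 difference was 0.11 (SE 0.35, 95% interval -0.72 to 0.94, edgeR adjusted p = 1.00), and it was -0.37 without the library labelled shDdr2 1.

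Il4ra (chromosome 7, 125552120 to 125579474, plus strand), the chain shared by the receptors of both cytokines, was at 69.2, 113 and 141 CPM in control 1 to 3 and at 53.1, 79.9 and 125 CPM in the libraries labelled shDdr2 1 to 3. Replicate 1 was the lowest and replicate 3 the highest in both groups, while for Il13ra1 replicate 1 was the highest and replicate 3 the lowest. Each library labelled shDdr2 was below the control of its number, by -0.38, -0.50 and -0.18 on the log2 scale, though the labels state no such pairing. The fitted difference was -0.33 (SE 0.38, 95% interval -1.21 to 0.56, edgeR adjusted p = 1.00). It was -0.078 without the library labelled shDdr2 1, -0.086 without control 3, -0.56 without control 1 and, with the library labelled shDdr2 3 left out, -0.70.

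Per kilobase of annotated exon, Il13ra1 exceeded Il13ra2 in every library. The ratio was 48.5, 12.5 and 10.8 in control 1 to 3, and it was 123, 61.2 and 73.6 in those labelled shDdr2 1 to 3. All 3 ratios in the second group were above the controls, and since Il13ra1 overlapped between the groups this repeats the pattern of Il13ra2 and is no separate result. The ratio of Il4ra to Il13ra1 was 0.179, 0.363 and 0.473 in control 1 to 3 and reached 0.0950, 0.276 and 0.561 in those labelled shDdr2, with Il13ra1 the higher in all 6.

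**Figure D2:**
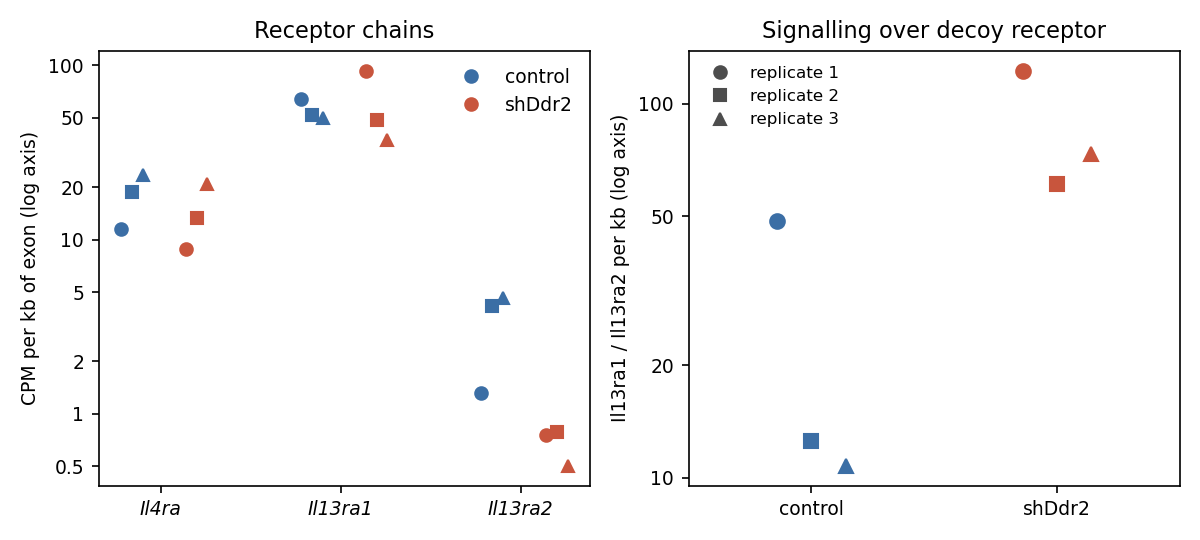
The left panel plots the receptor chains in CPM per kilobase of exon and the right panel the ratio of Il13ra1 to Il13ra2 per kilobase, each point a library, both on log axes. Il13ra1 lies above Il4ra and Il13ra2 in each of the 6 libraries, and the ratio runs from 10.8 to 48.5 in control tumours and from 61.2 to 123 in those labelled shDdr2.

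Stat6, the transcription factor activated by IL4RA, was the steadiest of the 9 genes. Stat6 (chromosome 10, 127642986 to 127660957, plus strand) was at 144, 121 and 137 CPM in control 1 to 3 and at 96.3, 136 and 143 CPM in the libraries labelled shDdr2 1 to 3. Its highest library exceeded its lowest by 1.5 times, and only the library labelled shDdr2 1 lay below the controls. The log2 difference was -0.10 (SE 0.22, 95% interval -0.61 to 0.41, edgeR adjusted p = 1.00), and it was 0.05 without that library. Stat6 overlaps the protein-coding gene Nab2 and Il4ra overlaps an antisense gene, each on the opposite strand, and the strand setting of the counting is not given in the sources used here, so reads of the overlapping parts cannot be assigned.

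Il33 was among the most variable of the genes. Il33 (chromosome 19, 29925114 to 29960718, plus strand) was at 342, 26.5 and 111 CPM in control 1 to 3 and at 29.8, 94.9 and 131 CPM in the libraries labelled shDdr2 1 to 3. Control 1 was far above the rest, and control 2 and the library labelled shDdr2 1 were the low ones, so each group held a high and a low library. The log2 difference was -0.91 (SE 0.87, 95% interval -2.95 to 1.14, edgeR adjusted p = 1.00), and it turned to 0.31 without control 1. Il33 per 1000 CPM of fibroblast markers was 143 CPM in control 1 and from 6.40 to 26.3 CPM in the other 5 libraries. Per 1000 CPM of epithelial markers it was 28.4 CPM in control 1 and 2.47 to 12.3 CPM elsewhere.

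Its receptor gene Il1rl1 had a low level, and its groups overlapped. Il1rl1 (chromosome 1, 40429570 to 40465415, plus strand) was at 4.69, 11.5 and 10.8 CPM in control 1 to 3 and at 5.85, 8.33 and 8.21 CPM in the libraries labelled shDdr2 1 to 3. Replicate 1 was lowest in both groups, and control 1, with the most Il33, had the least Il1rl1. The log2 difference was -0.27 (SE 0.40, 95% interval -1.20 to 0.67, edgeR adjusted p = 1.00), moving to -0.57 without control 1 and to -0.05 without control 2. The gene encodes a membrane receptor and a soluble form that captures interleukin 33, which counts per gene do not separate. The 8 mast cell and basophil markers in the table, of 9 listed, summed to 28.4 to 66.4 CPM in control tumours and to 23.4 to 47.4 CPM in those labelled shDdr2. Il1rl1 per 1000 CPM of these markers was 163 to 221 CPM in control tumours and 176 to 255 CPM in those labelled shDdr2. The part of these cells in the Il1rl1 values was not tested.

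Arg1 was the most abundant of the 9 genes per kilobase of exon, and its levels overlapped between the groups. Arg1 (chromosome 10, 24915221 to 24927484, minus strand) encodes arginase 1, which converts arginine to ornithine and depletes arginine around myeloid cells. It was at 315, 232 and 229 CPM in control 1 to 3 and at 236, 81.6 and 155 CPM in the libraries labelled shDdr2 1 to 3. The groups overlapped by the library labelled shDdr2 1, which lay just above control 2 and control 3. The differences within numbers were -0.42, -1.50 and -0.56 on the log2 scale, though the labels state no pairing by number. The fitted difference was -0.71 (SE 0.38, 95% interval -1.61 to 0.18, unadjusted p = 0.101, edgeR adjusted p = 1.00). It was -1.13 without the library labelled shDdr2 1 (edgeR unadjusted p = 0.00581, edgeR adjusted p = 0.658). In that fit 1022 of 14696 genes had an unadjusted p under 0.05. The Arg1 difference was -0.40 without the library labelled shDdr2 2 (edgeR unadjusted p = 0.239, edgeR adjusted p = 0.999). Scaled by library totals only, it was -0.79 (edgeR unadjusted p = 0.0475, edgeR adjusted p = 0.9999).

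The macrophage markers, led by Lyz2, overlapped between the groups. All 10 were in the table, among them Mrc1, which is also listed below as a target of alternative activation. They summed to 532, 901 and 769 CPM in control 1 to 3 and to 655, 917 and 1035 CPM in the libraries labelled shDdr2 1 to 3. Per 1000 CPM of these markers Arg1 was at 591, 257 and 298 CPM in control 1 to 3 and at 360, 89.0 and 150 CPM in the libraries labelled shDdr2, with the library labelled shDdr2 1 again inside the control range. Control 1 had the lowest macrophage sum and the highest level of Arg1. The neutrophil markers, of which 6 of 7 were in the table, summed to 183 to 325 CPM in control tumours. In those labelled shDdr2 they summed to 56.7 to 229 CPM. The part of either cell type in the Arg1 values was not tested.

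Retnla, which encodes the secreted resistin-like molecule alpha, was present or nearly absent by library. Retnla (chromosome 16, 48842551 to 48844461, plus strand) had 1, 115 and 142 counts in control 1 to 3 and 2, 48 and 5 counts in the libraries labelled shDdr2 1 to 3. These are levels of 0.0539, 6.87 and 8.93 CPM and of 0.144, 2.34 and 0.287 CPM. The annotated transcript is 84.5% identical to that of Retnlg, so reads could be shared. Control 2, control 3 and the library labelled shDdr2 2 were high, and the lowest library of all was control 1. The log2 difference was -2.46 (SE 1.43, 95% interval -5.81 to 0.89, edgeR adjusted p = 1.00), and with a library left out it ran from -4.54, without the library labelled shDdr2 2, to -1.85, without control 3.

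Chil3 (chromosome 3, 106147554 to 106167564, minus strand), which encodes the chitinase-like protein Ym1, was high in a single library. It was at 1.19, 19.7 and 5.22 CPM in control 1 to 3 and at 5.56, 3.90 and 2.58 CPM in the libraries labelled shDdr2 1 to 3. The 3 libraries labelled shDdr2 lay within a narrow range, and control 1 and control 2 lay on either side of it. The log2 difference was -1.12 (SE 0.88, 95% interval -3.18 to 0.94, edgeR adjusted p = 1.00), and it turned to 0.33 without control 2. Chil3 and its neighbour Chil4 have annotated transcripts that are 94.4% identical, and how the counting treated reads they share is not given in the sources used here. Summed over Chil3 and Chil4 the level was 4.15, 716 and 236 CPM in control 1 to 3 and 11.8, 26.7 and 3.62 CPM in the libraries labelled shDdr2, so control 2 and control 3 were high in the sum.

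**Figure D3:**
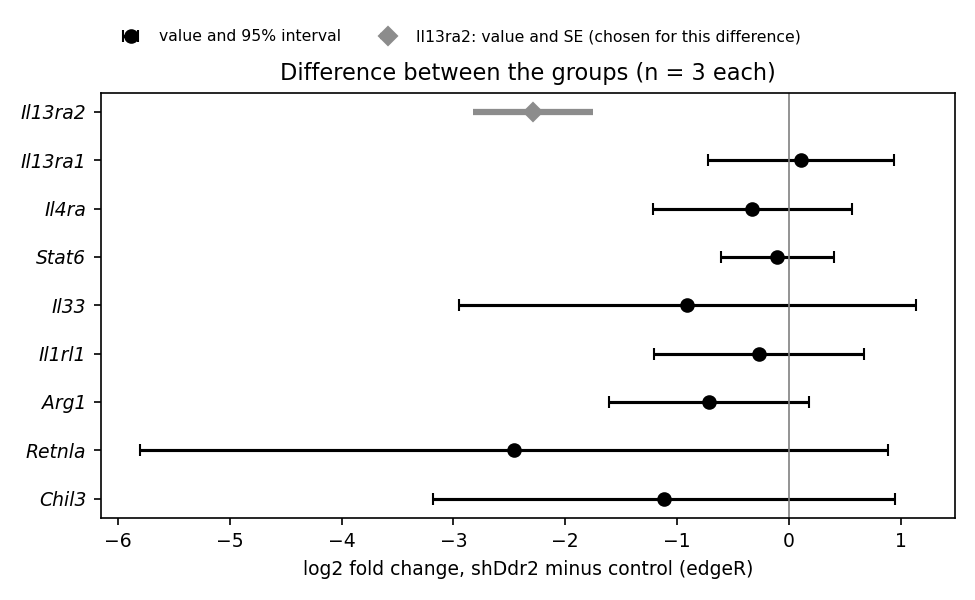
Fitted log2 difference, libraries labelled shDdr2 minus control, with 95% intervals for 8 genes and, for Il13ra2, the value with its SE alone. The intervals of all 8 genes include 0, and those of Retnla (-5.81 to 0.89) and Chil3 (-3.18 to 0.94) are the widest.

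Across the 6 libraries the mean level per kilobase of exon fell in the order Arg1, Il13ra1, Il33, Stat6, Il4ra, Retnla, Chil3, Il13ra2 and Il1rl1, from 93.3 to 1.19 CPM per kilobase. Neighbours in this order overlapped in their ranges in all 8 steps. Stat6 was above Il4ra in 6 of 6 libraries and Il4ra above Retnla in 6 of 6, while Arg1 was above Il13ra1 in 5 of 6. Retnla was above Chil3 in only 2 of 6 libraries and Il13ra2 above Il1rl1 in the 3 controls alone, so the order of the means does not hold in most libraries for the first of these pairs.

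The wider pathway was followed in 82 genes in 7 groups, of which 70 were in the table and tested. The edgeR test called 0 of the 70 higher and 0 lower, with 2 at an unadjusted p under 0.05 (2.86%, beside 1.44% of all genes), and DESeq2 called 1, Pparg. Fitted values were lower in the libraries labelled shDdr2 in 48 and higher in 22, with a median of -0.11. Over all genes 42.9% were lower and the median was 0.04. The groups did not overlap in 4 genes, Sigirr, Socs2, Pparg and P4ha1, all lower in the libraries labelled shDdr2. That is 5.71%, beside 4.32% of all genes in either direction and 2.11% with those libraries lower.

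Only 2 of 8 listed ligands were in the table. Tslp, an epithelial cytokine that primes type 2 responses, was at 2.64, 10.1 and 40 CPM in control 1 to 3 and at 23.3, 2.83 and 4.82 CPM in the libraries labelled shDdr2 1 to 3, with control 3 and the library labelled shDdr2 1 high. Il6 stayed between 0.828 and 1.95 CPM. Among the receptor chains 9 of 11 were tested, with 8 lower values and 1 higher. Il2rg, the common gamma chain that pairs with IL4RA on blood cells, was at 19.6 to 46.8 CPM, Il17ra at 20.2 to 41.0 CPM and Crlf2, a chain of the receptor for the Tslp protein, at 15.0 to 24.6 CPM. Sigirr, which restrains receptors of the interleukin 1 family including ST2, was at 9.49, 11.5 and 12.3 CPM in control 1 to 3 and at 9.39, 8.77 and 7.63 CPM in the libraries labelled shDdr2 (log2 difference -0.37, SE 0.26, edgeR adjusted p = 1.00).

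All 10 kinases and adaptors were tested, with 5 values higher and 5 lower. Jak1 and Jak2, kinases that dock on these receptors, were at 83.8 to 163 CPM and at 86.9 to 170.1 CPM, and 8 of the 10 were lowest in the library labelled shDdr2 1, the lowest in 34.6% of all genes. Jak3, the partner of the common gamma chain, differed by -0.39 and Myd88, the adaptor of ST2, by 0.10 on the log2 scale (SE 0.27 and 0.18, edgeR adjusted p = 1.00 for both). Of the 11 STAT factors and brakes 8 had lower values and 3 higher. Socs2, a suppressor of cytokine signalling, was at 17.0, 17.3 and 20.9 CPM in control 1 to 3 and at 8.23, 14.8 and 16.8 CPM in the libraries labelled shDdr2, and Ptpn11, a phosphatase, was at 177, 186 and 218 and at 128, 184 and 165 CPM. Stat3 ran from 114 to 226 CPM without separating the groups.

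Among the 22 targets of alternative activation 20 were tested, with 14 lower values, 6 higher and a median of -0.23. Pparg, a nuclear receptor of lipid metabolism in macrophages and of urothelial differentiation, was at 16.8, 11 and 10.3 CPM in control 1 to 3 and at 4.48, 1.90 and 5.05 CPM in the libraries labelled shDdr2 1 to 3. Its groups did not overlap, with a log2 difference of -1.74 (SE 0.44), an edgeR adjusted p of 1.00 and a DESeq2 adjusted p of 0.0493. Chil4, which encodes the chitinase-like protein Ym2, was at 2.97, 697 and 231 CPM in control 1 to 3 and at 6.21, 22.8 and 1.03 CPM in the libraries labelled shDdr2 1 to 3. Control 2 and control 3 were far above the other 4 libraries, and control 1 was not, so the log2 difference of -4.94 (SE 1.76) had an unadjusted p of 0.0253 and an edgeR adjusted p of 1.00. With a library left out it ran from -6.44, without the library labelled shDdr2 2, to -3.54, without control 2.

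Levels of the target list differed widely between libraries of the same group. Control 1 was the lowest library in 9 of the 20 targets (45.0%) and in 14.4% of all genes tested, and control 2 was the highest in 8 (40%) against 10.6% of all genes. Control 1 was also lowest for Retnla and Chil3, but highest for Arg1. The most abundant targets were Fn1, fibronectin, at 163 to 1269 CPM and Klf4, a transcription factor of macrophages and epithelia, at 151 to 229 CPM, and both overlapped between the groups. The markers of T cells, of which 5 of 6 were in the table, summed to 3.78, 28.4 and 10.1 CPM in control 1 to 3 and to 4.84, 23.0 and 7.63 CPM in the libraries labelled shDdr2, lowest in replicate 1 of both groups. The 4 monocyte markers, which include Chil3 itself, summed to 103 to 189 CPM and to 83.8 to 115 CPM. The 6 markers of type 2 lymphocytes, led by Gata3, which urothelial cells also express, summed to 201 to 264 CPM and 170 to 217 CPM. Gata3, Il17rb and Il7r in that list are also pathway genes, so these sums are not independent of the genes described. The eosinophil list had 2 of 5 markers in the table, with sums of 1.51 to 4.72 CPM in control tumours and 1.66 to 3.56 CPM in those labelled shDdr2, and its defining genes Epx and Prg2 had no row. The part of these cells in the target values was not tested.

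**Figure D4:**
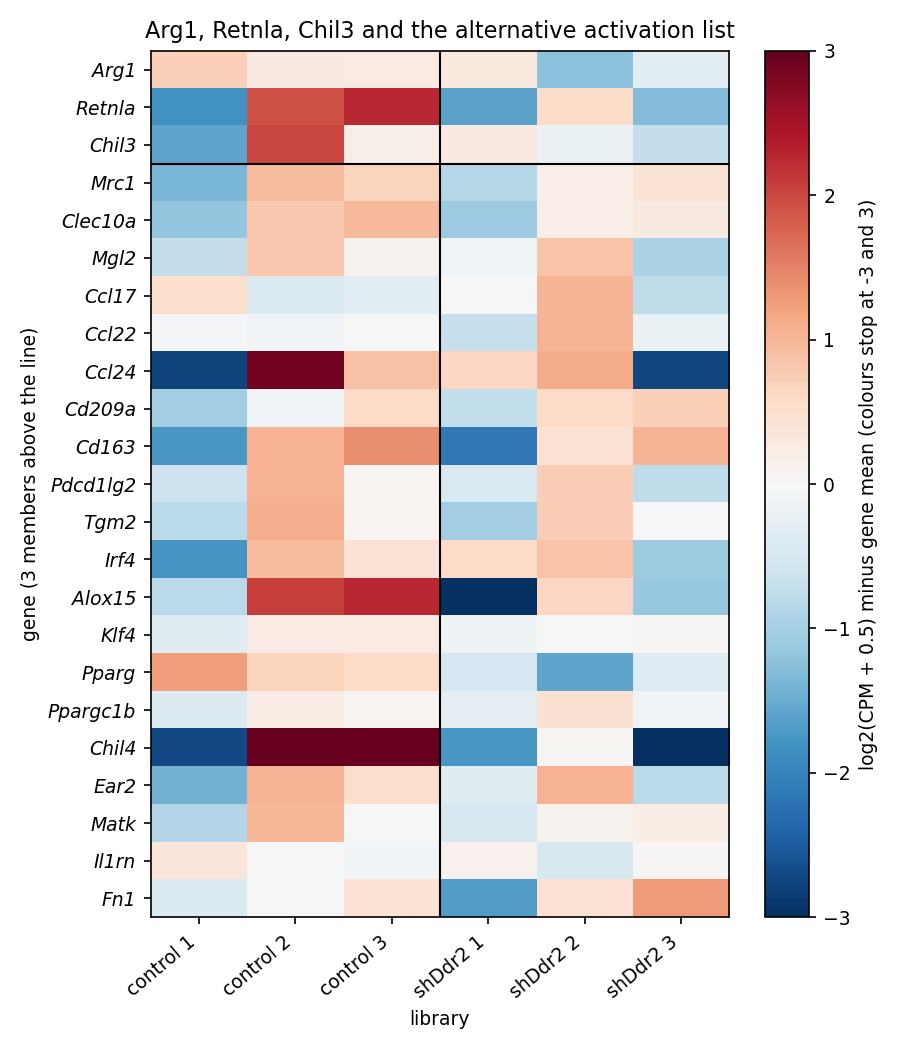
Each row is a gene, Arg1, Retnla and Chil3 above the line and 20 targets of alternative activation below it, and each column a library, with colour for the log2 of CPM plus 0.5 minus the gene's mean, limited to between -3 and 3. Retnla, Chil3 and Chil4 are low in control 1 and high in control 2, while Arg1 is highest in control 1.

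Genes that attract eosinophils or build matrix gave 5 lower and 2 higher values among 7 tested of 9. Ccl11, which encodes eotaxin, was at 31.7, 110 and 87.4 CPM in control 1 to 3 and at 32.2, 76.8 and 34.8 CPM in the libraries labelled shDdr2 1 to 3. Postn, which encodes periostin, a matrix protein induced by interleukin 13, was at 406 to 1333 CPM and Vcam1, an adhesion molecule of endothelium, at 66.4 to 118 CPM. Serpinb2, a protease inhibitor, was at 142 CPM in the library labelled shDdr2 1 and at 33.6 to 59.2 CPM in the other 5. Of the 11 genes of arginine use, 6 had lower and 5 higher values. P4ha1, a prolyl hydroxylase of collagen, was at 130, 136 and 134 CPM in control 1 to 3 and at 115, 104 and 116 CPM in the libraries labelled shDdr2, a log2 difference of -0.25 (SE 0.17, edgeR adjusted p = 1.00). Slc7a2, a transporter that brings arginine into macrophages, was at 8.52, 49.2 and 41.9 CPM in control 1 to 3 and at 11.8, 20.0 and 25.5 CPM in the libraries labelled shDdr2, again lowest in replicate 1 of both groups. Odc1, ornithine decarboxylase, reached 986 CPM in the library labelled shDdr2 1 against 283 to 604 CPM in the others, and Oat, ornithine aminotransferase, was at 145 to 242 CPM.

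Likeness to Il13ra2 was measured as Pearson's r of log2 CPM over the 6 libraries, among 12317 genes with an average log2 CPM of at least 1, as a description. The 5 most alike were Cdk8, a kinase of the Mediator complex (r = 0.982), Sigirr (0.966), Slc8b1, a mitochondrial sodium-calcium exchanger (0.965), Sun1, a protein of the inner nuclear membrane (0.953), and Pcdhb22, a protocadherin (0.942). With the group means removed r was 0.937, 0.919, 0.894, 0.877 and 0.777. These values come from the same 6 libraries by which the genes were picked, so they are no separate result. All 5 had no overlap between the groups, a split that this measure favours, since Il13ra2 has it. Their range was small: Cdk8 was at 52.7, 58.6 and 58.5 CPM in control 1 to 3 and at 50.7, 50.4 and 46.6 CPM in the libraries labelled shDdr2.

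The 5 genes most like Arg1 were Retreg1, a receptor for autophagy of the endoplasmic reticulum (r = 0.986), Egln3, an oxygen-sensing prolyl hydroxylase (0.980), Prss27, a serine protease (0.975), Acsbg1, an acyl-CoA synthetase (0.971), and Ankrd37 (0.968). With the group means removed r was 0.994, 0.965, 0.971, 0.956 and 0.943. Egln3 was at 1043, 1032 and 1004 CPM in control 1 to 3 and at 1002, 667 and 840 CPM in the libraries labelled shDdr2 1 to 3, with the library labelled shDdr2 2 lowest, as for Arg1. The likeness rests on the same 6 libraries and their scaling, and Retnla and Chil3 were not among these genes.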

How the data were processed

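Bulk tumour RNA was sequenced in 6 libraries, 3 per group. Per the submitters' processing notes, the tools were limma, Bowtie2 2.1.0 and RSEM 1.2.31, with the build GRCm38.p5, and no roles are given. The authors deposited counts as whole numbers by Entrez gene, possibly rounded from estimates. The lowest count is 1, so a gene missing from any library could not be studied. The 17 values of 100000 or more are written with fewer digits. The authors also deposited log2 values, which checked as the log2 of scaled counts plus 1.

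Symbols came from RefSeq, with 14876 of 15295 numbers matched, and positions and exon lengths from GENCODE M21 on GRCm38. Counts were filtered with filterByExpr, leaving 14498 genes, scaled by TMM and tested with the edgeR 4.0.16 quasi-likelihood F test (R 4.3.3, robust dispersion). Two-sided p-values were adjusted by Benjamini-Hochberg over all genes tested, with a threshold of 0.05. SEs were derived from the fold change and its F statistic. The common biological coefficient of variation was 35.3%. DESeq2 1.42.0 and limma 3.58.1 served as alternatives, with other scalings, filters, a replicate block and each library left out.

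The 9 genes, the pathway and marker lists and the naming rule were chosen with earlier results of these data known. Pathway genes are named where they had the 2 smallest p-values or the 2 highest levels of their group, and others are said to be chosen after their values were seen. The values of 1 gene that the rule names are not reported here. On simulated counts for this comparison, with 14367 genes tested, 200 having been changed before the filter, the test called 5.97%, 74.6% and 92.3% of genes changed by 1, 2 and 3 on the log2 scale, and 8.80% of its 125 calls were false. The changed genes were drawn from those with an average log2 CPM above 1, and each gene was simulated independently. The simulation therefore does not describe genes at lower levels, or libraries that stand apart in many genes at once.

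Same-numbered libraries of the groups deviated together, with correlations across genes of 0.299, 0.267 and 0.253, but control 3 with the library labelled shDdr2 2 gave 0.254. The labels do not say what the numbers stand for. The tests printed here have no term for the number, and the fit with the number as a block is an alternative. Libraries of a group were not duplicates, since the chi-square of their counts divided by its degrees of freedom was 25.3 to 234.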

Additional observations from a re-analysis of the deposited data

How the results depend on the processing

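DESeq2 called 40 genes over all genes and 1 of the pathway genes, Pparg, where edgeR called 0 and 0. Under the other alternatives, each library left out included, the count stayed at 0 for all genes, for the pathway and for the 8 genes besides Il13ra2, of which at most 2, without control 1, had an unadjusted p under 0.05. The cause of the difference between the tools was not tested. The log2 difference of Il13ra2 was -2.66 to -1.99 with a library left out and -2.15 with the replicate block, and its sign was fixed by how the set was chosen. The replicate block changed no call, with 262 genes at an unadjusted p under 0.05 beside 209 without it, and it gave Arg1 -0.82 (unadjusted p = 0.0227, edgeR adjusted p = 1.00). Without the library labelled shDdr2 1 the number at an unadjusted p under 0.05 rose to 1022, and without that labelled shDdr2 3 to 395. With a library left out, the sign turned in Il13ra1 (-0.37 to 0.35), Stat6 (-0.21 to 0.054), Il33 (-1.41 to 0.31), Chil3 (-1.62 to 0.33), Tslp (-2.21 to 0.69) and Il6 (-0.46 to 0.090). Il13ra1 was also at -0.0019 with limma on the deposited log2 values. Depth limits Retnla, with 1, 2 and 5 counts in 3 of its libraries.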

Other observations

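Among the alternative activation targets, 2 more were picked after their values were seen because they resemble Retnla and Chil4 by library. Alox15, the lipoxygenase that interleukin 4 and interleukin 13 induce in macrophages, was at 4.48, 36.6 and 41.9 CPM in control 1 to 3 and at 0.578, 13.1 and 3.50 CPM in the libraries labelled shDdr2 1 to 3 (log2 difference -2.25, SE 1.10, edgeR adjusted p = 1.00). Ccl24, an eosinophil chemokine of such macrophages, was at 0.324, 41.6 and 9.87 CPM in control 1 to 3 and at 8.23, 11.7 and 0.344 CPM in the libraries labelled shDdr2 (log2 difference -1.35, SE 1.46, edgeR adjusted p = 1.00). In both genes control 2 and control 3 were well above control 1, and the library labelled shDdr2 2 was the highest of its group.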
